A study of Mus musculus with 9 samples.

Results

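Respiratory complex I genes were described in mouse left ventricle across 3 groups of 3 libraries, which the series design calls biological replicates. The members were all annotated genes whose symbol starts with Nduf, leaving out symbols that contain -ps. They numbered 46 of 22036 genes with an Ensembl identifier in the count table, and all 46 passed the filter on low counts. Of these, 38 carry the name of a subunit (Ndufa, Ndufb, Ndufc, Ndufs and Ndufv) and 8 the name of an assembly factor (Ndufaf). The mice were wild type. HFD AAV-BCKDK mice received an adeno-associated virus (AAV) vector named for BCKDK together with HFD, taken to be a high-fat diet. In HFD AAV-CON mice a control vector was combined with that diet. In ND AAV-CON mice it was combined with the diet named ND, taken as normal. All groups thus carried a vector, and the sources used here do not give its promoter or dose, the age of the mice or the length of feeding. BCKDK is the mitochondrial kinase that phosphorylates and inhibits the branched-chain keto acid dehydrogenase, and the series title places it in obesity and mitochondrial reactive oxygen species.

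Complex I (NADH:ubiquinone oxidoreductase) is the entry point of electrons from NADH into the respiratory chain of the inner mitochondrial membrane. It couples electron transfer to proton pumping, and it is one of the main sites where mitochondria form superoxide. Its core subunits are encoded partly in the nucleus and partly in mitochondrial DNA, and nuclear accessory subunits surround them. Modules named N (NADH oxidation), Q (ubiquinone reduction), ND1, ND2, ND4 and ND5 (membrane arm) are built separately and joined with the help of assembly factors. The heart, which makes most of its ATP by oxidative phosphorylation, is rich in the complex.

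The labels of 2 members differ from their textbook roles. Ndufa4 was first assigned to complex I and is now regarded as a subunit of complex IV, and Ndufa4l2 is its paralog, known as a target of the hypoxia-inducible factor. Both are counted here among the 38 as the symbol rule requires, and without them 36 subunits remain. Levels are given as CPM, counts relative to the scaled size of the library, computed from the deposited counts. Per kilobase of the principal transcript, mean CPM in ND AAV-CON hearts ran from 13.4 for Ndufaf7 to 27.5 for Ndufaf1 among the assembly factors. Ndufa4l2, at 21.8 CPM per kilobase, lay within that range. The other subunits ran from 30.1 for Ndufb2 to 926 for Ndufa4 on the same scale. Where several transcripts shared the best principal rank, the longest was used. That of Ndufb2 has 4371 bases, the longest of any member, which lowers its value. The next lowest of these subunits was Ndufv3 at 76.8.

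The members lie on 17 chromosomes, with at most 6 on any one. In 7 of them at least 10% of the exon length overlaps another annotated gene, in 6 cases on the opposite strand. The largest such overlaps were Ndufaf2 with B230220B15Rik (65.6%), Ndufb6 with Smim27 (39.0%) and Ndufa13 with Tssk6 (30.0%). The sources used here do not say whether the authors' counting used strand, so reads of these pairs may not be separated. The annotation also holds near copies of Ndufab1, Ndufs6, Ndufb4 and Ndufa11, and the counts of these 4 genes are uncertain to that extent.

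Promoter sequences from RefSeq (GRCm38.p6, 250 bases before to 50 bases after the annotated start) matched 40 of the 46 members. Those without an entry included Ndufa2, Ndufa4l2, Ndufaf6, Ndufb9 and Ndufs1. The promoters were searched on both strands for motifs of factors known to act on nuclear respiratory genes. The NRF1 (nuclear respiratory factor 1) letters GCGCA, then any base, then GCGC, occurred in 9 of 40 members (22.5%), against 5.19% of all 27025 genes with a promoter. The YY1 letters AAGATGGCG occurred in 6 members (15.0%), against 1.64% of all genes, and the GABP letters CCGGAAG also in 6 members (15.0%), against 9.93%. The letters AAGGTCA of the estrogen-related receptors (ERR) occurred in 3 members (7.5%), against 5.38%. The SP letters GGGCGG occurred in 21 members (52.5%), against 38.2%. Matches of different motifs overlapped in 1 case. A match is a description of letters and not a binding site.

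The stretches of 250 bases before the start of 4 members follow, chosen among the 10 whose stretch held no annotated exon: 1 each with an ERR, a GABP and an NRF1 match, and 1 with none of the NRF1, YY1, ERR and GABP letters. Capitals mark the match, and SP letters are not marked. Ndufb2 lies at chr6:39592315-39592564 on the plus strand, with the first base of its match at -181 from the start. Ndufc2 lies at chr7:97399753-97400002 on the plus strand. Ndufaf1 lies at chr2:119662835-119663084 on the minus strand, with the match at -18, and Ndufaf4 at chr4:24897833-24898082 on the plus strand, with the match at -113. Ndufb2 and Ndufc2 are accessory subunits of the membrane arm, and Ndufaf1 and Ndufaf4 are assembly factors of 2 different modules. Ndufb2 had 1 of the 3 largest subunit changes in HFD AAV-BCKDK against HFD AAV-CON only (log2 fold change 0.89). In HFD AAV-CON against ND AAV-CON it was at -0.82, where the subunit median was -0.78. Ndufc2 had 1 of the 3 smallest changes in both comparisons.
Ndufb2: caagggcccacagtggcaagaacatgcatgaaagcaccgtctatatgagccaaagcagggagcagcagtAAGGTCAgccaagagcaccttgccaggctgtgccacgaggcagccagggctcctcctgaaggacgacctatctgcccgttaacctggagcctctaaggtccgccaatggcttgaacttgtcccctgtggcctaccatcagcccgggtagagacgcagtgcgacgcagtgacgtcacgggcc
Ndufc2: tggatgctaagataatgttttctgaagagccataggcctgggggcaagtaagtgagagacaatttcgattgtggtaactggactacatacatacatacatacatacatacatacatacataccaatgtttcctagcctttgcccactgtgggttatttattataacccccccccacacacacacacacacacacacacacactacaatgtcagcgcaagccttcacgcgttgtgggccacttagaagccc
Ndufaf1: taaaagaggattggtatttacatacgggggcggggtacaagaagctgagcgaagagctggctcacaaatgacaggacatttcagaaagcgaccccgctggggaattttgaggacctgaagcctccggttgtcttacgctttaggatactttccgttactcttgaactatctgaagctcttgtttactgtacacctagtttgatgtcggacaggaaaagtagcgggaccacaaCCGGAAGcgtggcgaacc
Ndufaf4: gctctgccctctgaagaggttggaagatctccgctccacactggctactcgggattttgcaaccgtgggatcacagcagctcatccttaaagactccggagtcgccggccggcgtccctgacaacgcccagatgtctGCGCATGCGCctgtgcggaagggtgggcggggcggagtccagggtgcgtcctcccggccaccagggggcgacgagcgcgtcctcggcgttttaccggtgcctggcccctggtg

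Annotated genes received between 32803233 and 45483044 counts per library. Mitochondrially encoded transcripts took 45.0% to 47.6% of these in HFD AAV-BCKDK libraries, 26.1% to 39.9% in HFD AAV-CON libraries and 42.1% to 45.7% in ND AAV-CON libraries. Bckdk, the gene named on the vector, averaged 119 ± 7.5 CPM in HFD AAV-BCKDK and 50.5 ± 14.0 CPM in HFD AAV-CON hearts (SD, n = 3 each), a log2 difference of 1.24 (SE 0.17, adjusted p = 0.0016 in edgeR's quasi-likelihood test). In ND AAV-CON hearts it averaged 73.2 ± 4.69 CPM (SD, n = 3). Bckdk was lower in HFD AAV-CON than in ND AAV-CON (-0.54, SE 0.17, adjusted p = 0.0300), and between HFD AAV-BCKDK and ND AAV-CON it was not called (0.70, SE 0.17, adjusted p = 0.0700), although the libraries did not overlap. In each comparison of groups the exact two-sided permutation p was 0.1, the smallest that 3 libraries against 3 can give. The HFD AAV-CON libraries were the most dispersed, and the complex I genes followed the same order in nearly all cases. Replicate 1 was the lowest of the group for all 46 members and replicate 2 the highest for 45, with replicate 3 the highest for Ndufaf3. Over all genes tested, replicate 3 lay between the other libraries of its group for 64.1%, and no other library did so for more than 37.1%. Loci without an Ensembl identifier held 1.02% of the counts of replicate 3 and at least 4.75% in each other library. Whether replicate 3 is an independent heart is not settled by these files, so counts are also given without it.

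**Figure D1:**
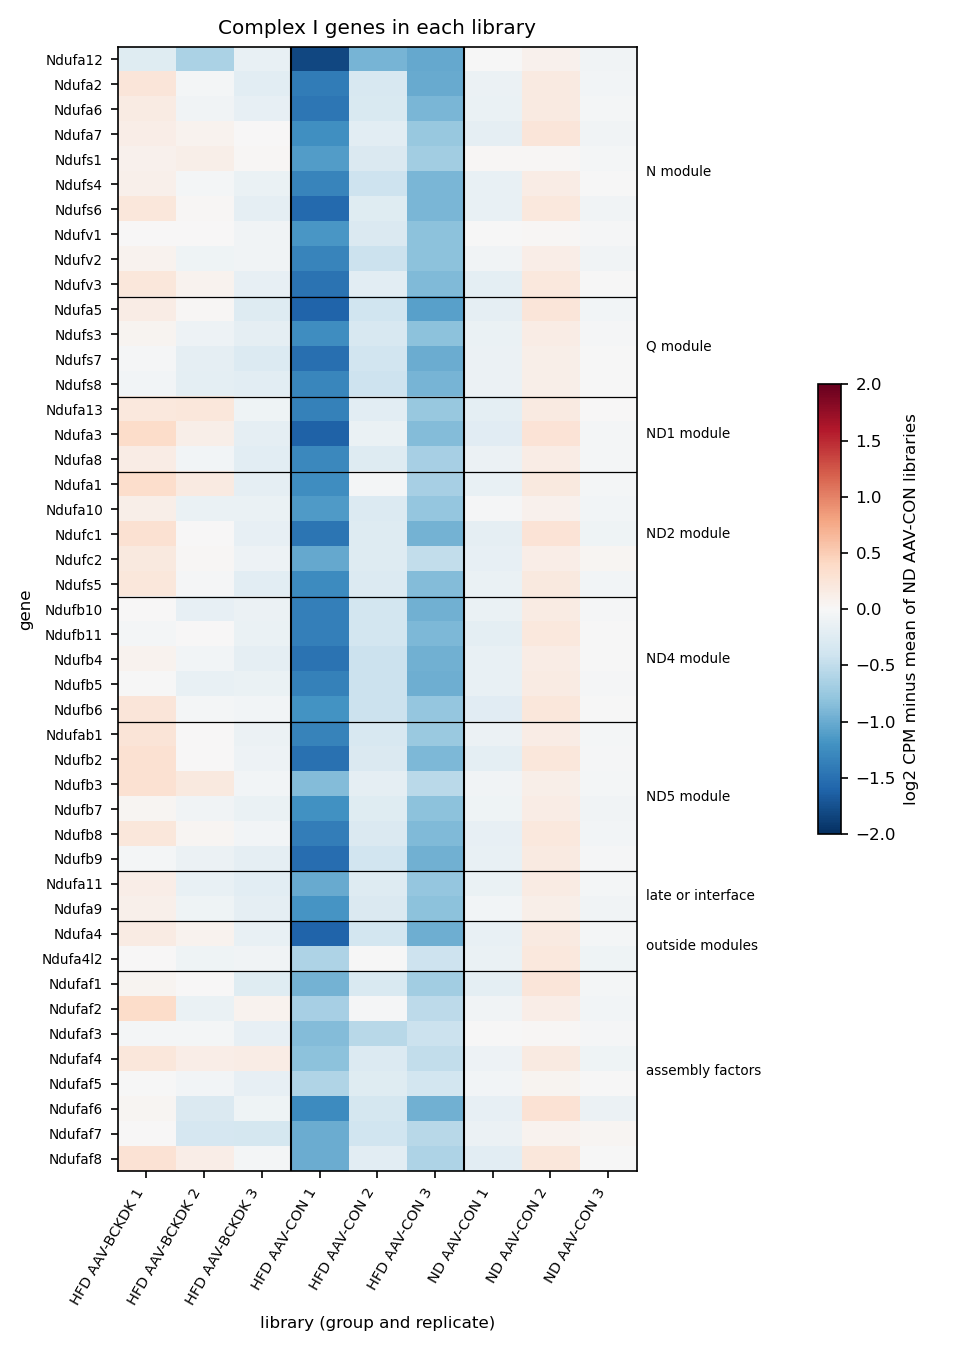
Level of 45 members (rows, grouped by module) in each of the 9 libraries (columns), as log2 CPM minus the mean of the ND AAV-CON libraries. HFD AAV-CON replicate 1 is the darkest blue, the lowest library of its group for each gene drawn. Replicate 2 is the palest of the group except for Ndufaf3, where replicate 3 is.

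Diet was compared among hearts with the control vector, HFD AAV-CON against ND AAV-CON. Nearly all nuclear complex I genes were lower in HFD AAV-CON hearts. Of the 38 subunits, 35 fell and none rose (edgeR's quasi-likelihood test, false discovery rate 0.05), where 20.6% of the 14160 genes tested fell and 22.7% rose (43.3% in either direction). The median log2 fold change of the subunits was -0.78, with a range of -1.21 to -0.33, against -0.0018 over all genes tested. Of the 8 assembly factors, 7 fell, with a median of -0.60 and a range of -0.82 to -0.38. The libraries of the groups did not overlap for 35 subunits and 7 assembly factors, all lower in HFD AAV-CON, which held for 27.1% of all genes (28.2% did not overlap and were higher). The count of subunits called was 8 without HFD AAV-CON replicate 3, 11 without ND AAV-CON replicate 2 and 38 without HFD AAV-CON replicate 2, and that of assembly factors was 4 without the first of these libraries and 2 without the second. Of all genes, 12% fell in the first of these fits, 12.9% in the second and 25.6% in the third. The subunit median moved between -0.56 and -1.08 when each library was left out. These calls rest on an estimate of the spread shared by the 3 groups. Fitted with these 2 groups alone, 23 subunits were called lower, where 2334 of 14042 genes were.

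In heart tissue a smaller number of cardiomyocytes and less of an mRNA in each cardiomyocyte cannot be told apart in these bulk libraries. In HFD AAV-CON against ND AAV-CON, 20.6% of all genes tested fell and 22.7% rose. In HFD AAV-BCKDK against HFD AAV-CON, 17.3% rose and 20.9% fell. Cardiomyocyte markers moved with the complex I genes. Of 11 such markers, 9 fell in HFD AAV-CON against ND AAV-CON and 7 rose in HFD AAV-BCKDK against HFD AAV-CON. Their summed level was 35110 to 38092 CPM in HFD AAV-BCKDK, 19510 to 32071 CPM in HFD AAV-CON, against 39746 to 41592 CPM in ND AAV-CON. All 7 macrophage markers rose under the diet and fell under the BCKDK vector, with sums of 465 to 608 CPM in HFD AAV-BCKDK, 1688 to 2798 CPM in HFD AAV-CON, against 608 to 848 CPM in ND AAV-CON. Fibroblast markers summed to 1114 to 1223 CPM in HFD AAV-BCKDK, 1658 to 3452 CPM in HFD AAV-CON, against 1260 to 1333 CPM in ND AAV-CON, with 5 of 7 higher under the diet and 6 of 7 lower under the BCKDK vector. T and NK cell markers summed to 1.43 to 9.02 CPM in HFD AAV-BCKDK, 73.5 to 131 CPM in HFD AAV-CON, against 1.16 to 28.2 CPM in ND AAV-CON, with 5 of 5 higher under the diet and 5 of 5 lower under the BCKDK vector. Endothelial markers were lower for 5 of 7 under the diet and higher for 7 of 7 under the BCKDK vector, pericyte and smooth muscle markers for 4 and 3 of 6, and erythroid markers for 4 and 4 of 4. The sums of B cell and neutrophil markers stayed at or under 13.1 CPM in each library, and those of atrial, adipocyte and skeletal muscle markers at or under 3.68 CPM. No cardiomyocyte, macrophage, fibroblast or T and NK marker was at 0 in all libraries of a group. The part of these cell types in the results was not tested.

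The nuclear core subunits, which carry the redox centres, all fell under the diet. Ndufv1, which binds NADH and flavin mononucleotide in the N module, had 225, 414 and 284 CPM in the HFD AAV-CON libraries, against 502, 515 and 497 CPM in ND AAV-CON, a log2 fold change of -0.71 (SE 0.19, adjusted p = 0.0139). Ndufs1, an iron-sulfur protein of the same module, had 265, 471 and 358 CPM in HFD AAV-CON, against 583, 586 and 559 CPM in ND AAV-CON (-0.66, SE 0.18, adjusted p = 0.0149). In both genes the HFD AAV-CON libraries all lay below the ND AAV-CON libraries, and replicate 2 came closest to them. Ndufv2, the other iron-sulfur core protein of the N module, had 191, 355 and 270 CPM in HFD AAV-CON, against 454, 519 and 455 CPM in ND AAV-CON (-0.81, SE 0.19, adjusted p = 0.0090). Ndufs8, an iron-sulfur protein that leads electrons toward ubiquinone, had 75.5, 140 and 98.2 CPM in HFD AAV-CON, against 172, 202 and 185 CPM in ND AAV-CON (-0.83, SE 0.19, adjusted p = 0.0077). The groups did not overlap, and the calls of Ndufv2 and Ndufs8 held with each library left out.

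Further core subunits belong to the Q module. Ndufs7, an iron-sulfur protein at the ubiquinone pocket, had 111, 240 and 158 CPM in HFD AAV-CON, against 289, 341 and 313 CPM in ND AAV-CON (-0.89, SE 0.23, adjusted p = 0.0135). Ndufs3, a core subunit of the Q module, had 115, 218 and 155 CPM in HFD AAV-CON, against 248.5, 304 and 270 CPM in ND AAV-CON (-0.75, SE 0.20, adjusted p = 0.0148). Both genes were lower in each HFD AAV-CON library than in any library of ND AAV-CON. The calls of Ndufs1, Ndufs7 and Ndufv1 were lost in the fit without HFD AAV-CON replicate 3. That of Ndufs3 was lost there and without ND AAV-CON replicate 2. The highest adjusted p of these 4 genes over the libraries left out was 0.0552, for Ndufv1.

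Among the accessory subunits, Ndufa12 had the largest fall. Ndufa12 (ENSMUSG00000020022, mm10 chromosome 10 from 94198720 to 94221443) joins the N to the Q module late in assembly, in the place held by the assembly factor Ndufaf2. It had 42.9, 79.6 and 74.2 CPM in HFD AAV-CON, against 150, 161 and 144 CPM in ND AAV-CON (log2 fold change -1.21, SE 0.21, adjusted p = 0.0025). Each HFD AAV-CON value was far below all values of ND AAV-CON, and the call held with each library left out. Ndufa5, an accessory protein of the Q module, had 67.7, 156 and 96.7 CPM in HFD AAV-CON, against 181, 243 and 197 CPM in ND AAV-CON (-0.95, SE 0.26, adjusted p = 0.0176). Ndufa4 had 185, 434 and 285 CPM in HFD AAV-CON, against 510, 634 and 550 CPM in ND AAV-CON (-0.91, SE 0.26, adjusted p = 0.0197). The groups were apart for both genes, and both calls were lost if HFD AAV-CON replicate 3 was left out, or ND AAV-CON replicate 2, with a highest adjusted p of 0.0647 for Ndufa5 and 0.0669 for Ndufa4.

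Among the subunits, the smallest log2 fold changes under the diet were those of Ndufa4l2, Ndufb3 and Ndufc2. Ndufa4l2 had 13.2, 20.1 and 15.2 CPM in HFD AAV-CON, against 18.5, 23.3 and 19.2 CPM in ND AAV-CON, and the groups overlapped (-0.33, SE 0.15, adjusted p = 0.103). Ndufb3, in the ND5 module, had 59.8, 96.8 and 75.2 CPM in HFD AAV-CON, against 104, 118 and 107 CPM in ND AAV-CON (-0.51, SE 0.16, adjusted p = 0.0321). Ndufc2, in the ND2 module, had 64.9, 110 and 94.2 CPM in HFD AAV-CON, against 118, 144 and 135 CPM in ND AAV-CON (-0.56, SE 0.18, adjusted p = 0.0286). The libraries did not overlap for Ndufb3 and Ndufc2. Ndufb3 was called in 1 of 6 fits with a library left out and Ndufc2 in 3 of 6. Ndufa3 (-0.77, adjusted p = 0.0744) and Ndufa1 (-0.58, adjusted p = 0.105), small subunits of the membrane arm, were the other subunits not called. They were named after their values were seen.

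The assembly factors were also lower, and all but Ndufaf2 were called. Ndufaf6, which takes part in early assembly of the membrane arm, had the largest log2 fold change of the factors, with 6.90, 12.9 and 8.39 CPM in HFD AAV-CON, against 14.6, 20.0 and 15.1 CPM in ND AAV-CON (-0.82, SE 0.22, adjusted p = 0.0158). Ndufaf1, of the complex that builds the ND2 module, had 20.6, 31.9 and 24.5 CPM in HFD AAV-CON, against 34.4, 46.7 and 38.5 CPM in ND AAV-CON (-0.64, SE 0.17, adjusted p = 0.0149). Ndufaf7, a methyltransferase that acts early in assembly, had 11.7, 17.7 and 15.9 CPM in HFD AAV-CON, against 21.6, 24.6 and 23.9 CPM in ND AAV-CON (-0.64, SE 0.16, adjusted p = 0.0106). In these 3 genes all HFD AAV-CON libraries lay below all ND AAV-CON libraries. Ndufaf3, which acts with Ndufaf4 on the Q module, had 11.6, 14.4 and 15.7 CPM in HFD AAV-CON, against 21.0, 21.6 and 20.9 CPM in ND AAV-CON (-0.61, SE 0.11, adjusted p = 0.0030). Ndufaf4 had 31.5, 45.8 and 39.4 CPM in HFD AAV-CON, against 51.8, 63.3 and 52.5 CPM in ND AAV-CON (-0.52, SE 0.13, adjusted p = 0.0126). Neither gene overlapped between the groups, and Ndufaf3 alone among the members was highest in replicate 3 within HFD AAV-CON.

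Ndufaf8, the partner that stabilises Ndufaf5, had 9.32, 15.9 and 12.1 CPM in HFD AAV-CON, against 15.99, 21.5 and 18.4 CPM in ND AAV-CON (-0.59, SE 0.19, adjusted p = 0.0322). Ndufaf5, which hydroxylates an arginine of Ndufs7, had 14.8, 19.0 and 17.4 CPM in HFD AAV-CON, against 21.5, 23.4 and 22.4 CPM in ND AAV-CON (-0.39, SE 0.10, adjusted p = 0.0137). Ndufaf2, a paralog of Ndufa12 that holds its place in assembly intermediates, had 8.405, 13.0 and 9.27 CPM in HFD AAV-CON, against 12.7, 14.5 and 12.8 CPM in ND AAV-CON (-0.38, SE 0.18, adjusted p = 0.110). Only Ndufaf2 overlapped between these groups among the 8 factors, in HFD AAV-CON replicate 2. With each library left out in turn, Ndufaf3 and Ndufaf7 were called in all 6 fits, Ndufaf4 and Ndufaf5 in 5 (lost without ND AAV-CON replicate 2), Ndufaf1 and Ndufaf6 in 4 (lost without that library or HFD AAV-CON replicate 3) and Ndufaf8 in 2.

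**Figure D2:**
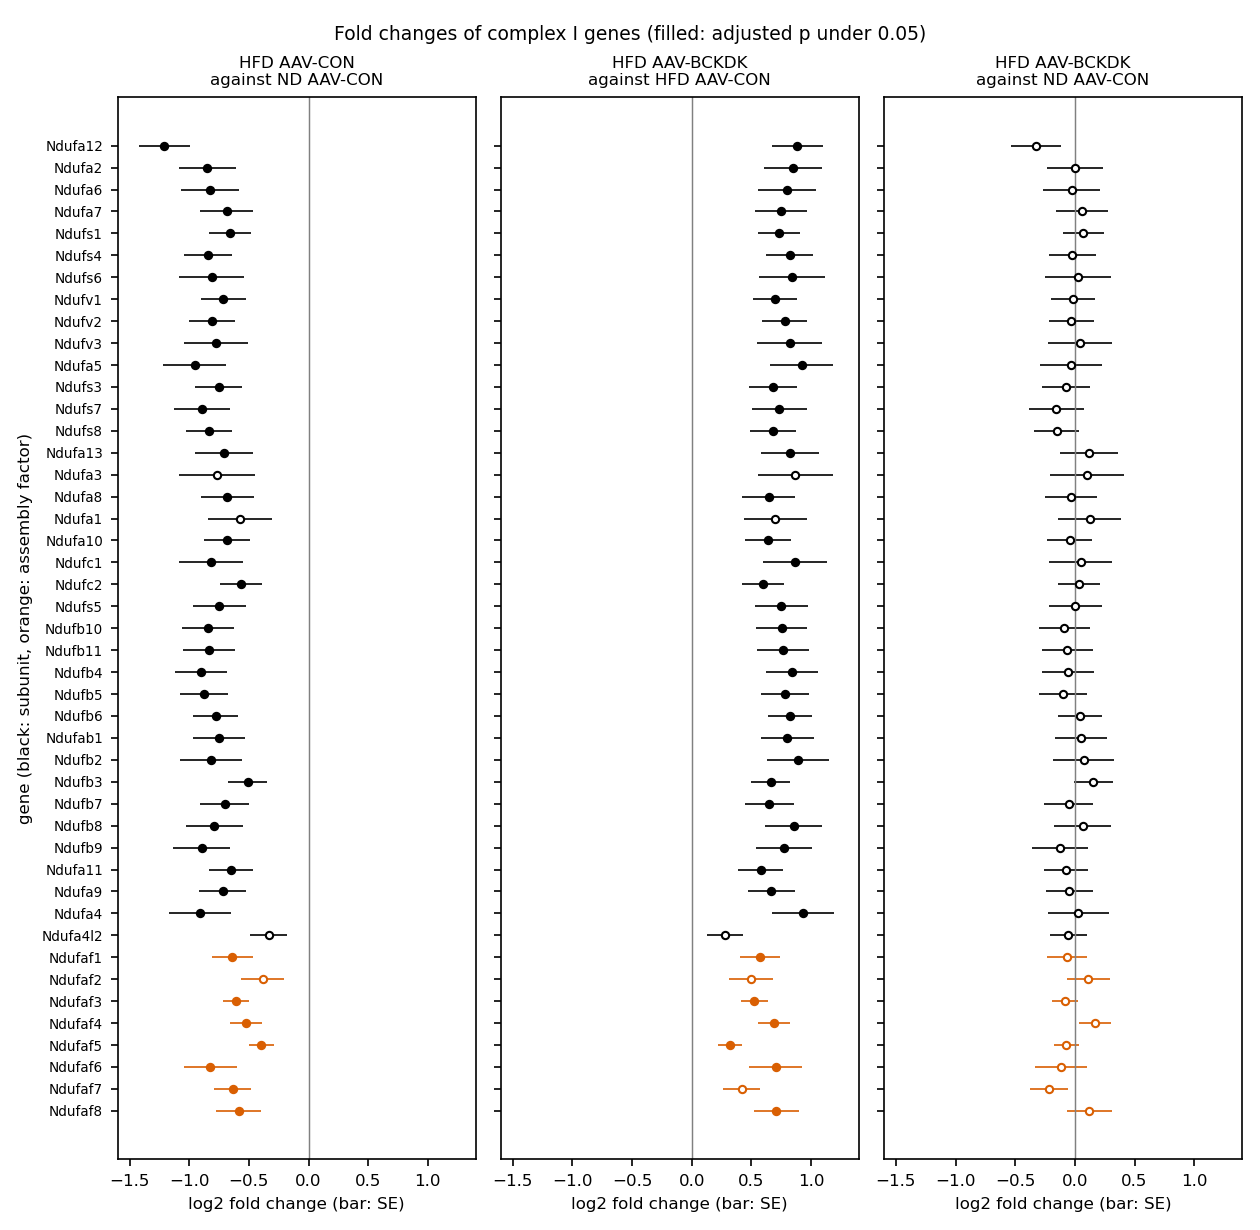
Log2 fold change of 45 members with its standard error in the 3 comparisons, with filled points where the adjusted p of edgeR's quasi-likelihood test was under 0.05. Subunits are black and assembly factors orange. All points lie below 0 in the first panel and above 0 in the second with TMM scaling, and Ndufa4l2 in the first panel and Ndufa4l2, Ndufaf5 and Ndufaf7 in the second cross 0 with total-count scaling.

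Vectors were compared among hearts of mice on HFD, HFD AAV-BCKDK against HFD AAV-CON. This comparison shares the HFD AAV-CON libraries with the diet comparison, so a low or high HFD AAV-CON value enters both with opposite signs, and the values are given side by side only. Of the 38 subunits, 35 rose and none fell, where 17.3% of all genes tested rose and 20.9% fell (38.2% in either direction). Their median log2 fold change was 0.77 and their range 0.28 to 0.94, against -0.010 over all genes tested. Of the 8 assembly factors, 6 rose, with a median of 0.55 and a range of 0.32 to 0.71. Libraries did not overlap for 35 subunits and 7 assembly factors, all higher in HFD AAV-BCKDK, which held for 24% of all genes (27.3% did not overlap and were lower). The count of subunits called was 6 without HFD AAV-CON replicate 3, 5, 8 and 23 without HFD AAV-BCKDK replicates 1, 2 and 3, and 38 without HFD AAV-CON replicate 2. Of all genes, 6.87% rose without HFD AAV-CON replicate 3, 7.73%, 8.5% and 10.6% without HFD AAV-BCKDK replicates 1, 2 and 3, and 24.7% without HFD AAV-CON replicate 2, so the lowest count, 5 of 38, is not far from its background. The count of assembly factors was 3 without HFD AAV-CON replicate 1 and 2 without HFD AAV-CON replicate 3, HFD AAV-BCKDK replicate 1 or HFD AAV-BCKDK replicate 2. Here too the spread was estimated over the 3 groups together. Fitted with these 2 groups alone, 17 subunits were called higher, where 1491 of 13818 genes were.

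The core subunits rose by similar amounts. Ndufv2 had 498, 447 and 453 CPM in HFD AAV-BCKDK, against 191, 355 and 270 CPM in HFD AAV-CON (0.78, SE 0.19, adjusted p = 0.0138). Ndufs7 had 308, 278 and 260 CPM in HFD AAV-BCKDK, against 111, 240 and 158 CPM in HFD AAV-CON (0.73, SE 0.23, adjusted p = 0.0330). Ndufs1 had 608, 623 and 584 CPM in HFD AAV-BCKDK, against 265, 471 and 358 CPM in HFD AAV-CON (0.73, SE 0.18, adjusted p = 0.0128). Each HFD AAV-BCKDK library was above each HFD AAV-CON library in these genes, and the calls of Ndufv2 and Ndufs1 held with each library left out. Ndufv1 had 509, 507 and 481 CPM in HFD AAV-BCKDK (log2 fold change 0.70, SE 0.19, adjusted p = 0.0187). Ndufs8 had 180, 162 and 161 CPM in HFD AAV-BCKDK (0.68, SE 0.19, adjusted p = 0.0218), and Ndufs3 had 285, 254 and 242 CPM (0.68, SE 0.20, adjusted p = 0.0262). The 3 genes again did not overlap between the groups, and the calls of all 3 and of Ndufs7 were lost in fits without HFD AAV-CON replicate 3 or HFD AAV-BCKDK replicate 1 or 2. That of Ndufs7 was also lost in the fit without HFD AAV-BCKDK replicate 3.

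The largest rises among the accessory subunits were those of Ndufa4, Ndufa5 and Ndufb2. Ndufa4 had 633, 589 and 507 CPM in HFD AAV-BCKDK, against 185, 434 and 285 CPM in HFD AAV-CON (0.94, SE 0.26, adjusted p = 0.0213). Ndufa5 had 227, 207 and 172 CPM in HFD AAV-BCKDK, against 67.7, 156 and 96.7 CPM in HFD AAV-CON (0.92, SE 0.26, adjusted p = 0.0240). Ndufb2, whose promoter stretch with the ERR letters is shown above, had 162, 131 and 122 CPM in HFD AAV-BCKDK, against 46.7, 107 and 70.4 CPM in HFD AAV-CON (0.89, SE 0.26, adjusted p = 0.0253). HFD AAV-CON replicate 2 came within reach of the lowest HFD AAV-BCKDK library in all 3 genes without overlapping it. Ndufa12 had 127, 98.1 and 137 CPM in HFD AAV-BCKDK, against 42.9, 79.6 and 74.2 CPM in HFD AAV-CON (0.88, SE 0.21, adjusted p = 0.0129), and its call held with each library left out. The calls of Ndufa4, Ndufa5 and Ndufb2 were lost in fits without HFD AAV-CON replicate 3 or HFD AAV-BCKDK replicate 1 or 2.

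Among the subunits, the smallest log2 fold changes were those of Ndufa4l2, Ndufa11 and Ndufc2. Ndufa4l2 had 20.4, 19.2 and 19.2 CPM in HFD AAV-BCKDK, against 13.2, 20.1 and 15.2 CPM in HFD AAV-CON, with overlapping groups (0.28, SE 0.15, adjusted p = 0.176). Ndufa11, an accessory subunit of the membrane arm, had 210, 174 and 166 CPM in HFD AAV-BCKDK, against 95.2, 161 and 113 CPM in HFD AAV-CON (0.58, SE 0.18, adjusted p = 0.0351). Ndufc2 had 151, 134 and 122 CPM in HFD AAV-BCKDK, against 64.9, 110 and 94.2 CPM in HFD AAV-CON (0.60, SE 0.18, adjusted p = 0.0260). Ndufa11 and Ndufc2 did not overlap between the groups, but with a library left out Ndufa11 was called in 1 of 6 fits and Ndufc2 in 3. Ndufa3 (0.87, adjusted p = 0.0548) and Ndufa1 (0.70, adjusted p = 0.0623) had values like those of the subunits called and were themselves not called. For Ndufb3 the value was 0.66 (SE 0.16, adjusted p = 0.0143), with 136, 125 and 106 CPM in HFD AAV-BCKDK, and its call was lost in the fit without HFD AAV-BCKDK replicate 1.

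Among the assembly factors, Ndufaf8, Ndufaf6 and Ndufaf4 rose most under the BCKDK vector. Ndufaf4, whose promoter stretch with the NRF1 letters is shown above, had 65.3, 61.2 and 61.5 CPM in HFD AAV-BCKDK, against 31.5, 45.8 and 39.4 CPM in HFD AAV-CON (0.69, SE 0.13, adjusted p = 0.0055). Ndufaf8 had 22.5, 20.3 and 18.1 CPM in HFD AAV-BCKDK, against 9.32, 15.9 and 12.1 CPM in HFD AAV-CON (0.71, SE 0.19, adjusted p = 0.0188). Ndufaf6 had 16.9, 13.4 and 15.5 CPM in HFD AAV-BCKDK, against 6.90, 12.9 and 8.39 CPM in HFD AAV-CON (0.71, SE 0.22, adjusted p = 0.0335). None of these overlapped, and the gap was narrowest for Ndufaf6. Ndufaf1 had 41.2, 39.7 and 33.4 CPM in HFD AAV-BCKDK (0.57, SE 0.17, adjusted p = 0.0272). Ndufaf3 had 20.5, 20.5 and 18.9 CPM (0.52, SE 0.11, adjusted p = 0.0079), and Ndufaf5 had 22.4, 21.6 and 20.0 CPM (0.32, SE 0.10, adjusted p = 0.0351). All HFD AAV-BCKDK libraries of these 3 genes were above the HFD AAV-CON libraries given earlier.

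Ndufaf2 and Ndufaf7 were not called under the BCKDK vector. Ndufaf2 had 17.2, 12.1 and 13.9 CPM in HFD AAV-BCKDK, against 8.405, 13.0 and 9.27 CPM in HFD AAV-CON (0.50, SE 0.18, adjusted p = 0.0542), and the groups overlapped. Ndufaf7 had 23.5, 18.6 and 18.4 CPM in HFD AAV-BCKDK, against 11.7, 17.7 and 15.9 CPM in HFD AAV-CON (0.42, SE 0.16, adjusted p = 0.0600), and they did not overlap. With each library left out in turn, Ndufaf3 and Ndufaf4 were called in all 6 fits, Ndufaf8 in 3, Ndufaf1 in 2 and Ndufaf5 and Ndufaf6 in 1, the only fit with a call being that without HFD AAV-CON replicate 2.

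By module, all 10 N subunits, all 5 Q subunits, all 5 of ND4 and all 6 of ND5 fell under the diet and rose under the BCKDK vector. Of all genes tested, 20.6% fell under the diet and 17.3% rose under the BCKDK vector. The modules ND1 (2 of 3 called in each comparison, Ndufa3 missing) and ND2 (4 of 5, Ndufa1 missing) had calls in the same directions, as did Ndufa9 and Ndufa11, which join late or at an interface. Under the diet the module medians were -0.81 for N, -0.83 for Q, -0.71 for ND1, -0.68 for ND2, -0.84 for ND4 and -0.77 for ND5. Under the BCKDK vector they were 0.81 for N, 0.69 for Q, 0.82 for ND1, 0.70 for ND2, 0.78 for ND4 and 0.79 for ND5. Differences between modules were not tested. Members with and without the NRF1 letters had medians of -0.75 and -0.75 under the diet and 0.75 and 0.75 under the BCKDK vector. Those with and without the ERR letters had -0.82 and -0.75 under the diet and 0.84 and 0.73 under the BCKDK vector, on 3 members with the letters. With and without the GABP letters the medians were -0.73 and -0.76 under the diet and 0.68 and 0.76 under the BCKDK vector, on 6 members. For the YY1 letters they were -0.82 and -0.75, and 0.78 and 0.75, and for the SP letters -0.75 and -0.81, and 0.78 and 0.75. None of these splits was tested.

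The comparison of HFD AAV-BCKDK with ND AAV-CON, in which diet and vector differ together, called none of the 46 members. By edgeR 2.45% of all genes were called, 1.27% lower and 1.18% higher, and 0 members had an unadjusted p under 0.05. DESeq2 and limma-voom also called 0 subunits and 0 assembly factors. The subunit median was -0.020, with a range of -0.33 to 0.15, and the assembly factor median was -0.070, with a range of -0.22 to 0.17, against -0.027 over all genes. A p above the threshold does not show that the levels were alike. The smallest p was that of Ndufa12, with 127, 98.1 and 137 CPM in HFD AAV-BCKDK, against 150, 161 and 144 CPM in ND AAV-CON (-0.33, SE 0.21, adjusted p = 0.485). Ndufa12 was the only subunit whose HFD AAV-BCKDK libraries all lay below the ND AAV-CON libraries, and Ndufaf3 the only assembly factor, where 15.1% of all genes did so and 12.6% lay above without overlap. Ndufaf3 had 20.5, 20.5 and 18.9 CPM in HFD AAV-BCKDK, against 21.0, 21.6 and 20.9 CPM in ND AAV-CON (-0.084, SE 0.11, adjusted p = 0.772).

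The other members with the smallest p were Ndufaf7, Ndufaf4, Ndufb3 and Ndufs8. The log2 fold change of Ndufaf7 was -0.22 (SE 0.16, adjusted p = 0.541), with 23.5, 18.6 and 18.4 CPM in HFD AAV-BCKDK, against 21.6, 24.6 and 23.9 CPM in ND AAV-CON. That of Ndufaf4 was 0.17 (SE 0.13, adjusted p = 0.592), with 65.3, 61.2 and 61.5 CPM in HFD AAV-BCKDK, against 51.8, 63.3 and 52.5 CPM in ND AAV-CON. The groups overlapped in both. Ndufb3 had 0.15 (SE 0.16, adjusted p = 0.704) and Ndufs8 had -0.15 (SE 0.19, adjusted p = 0.751), also with overlap. None of these 6 genes was called with any library left out.

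Summed over the 38 subunits, the level was 10863, 9810 and 9231 CPM in HFD AAV-BCKDK, 4065, 8050 and 5624 CPM in HFD AAV-CON, against 9327, 11078 and 9787 CPM in ND AAV-CON. The 3 HFD AAV-CON libraries were the lowest of the 9, and replicate 1 was the lowest of these. The 8 assembly factors summed to 229, 207 and 200 CPM in HFD AAV-BCKDK, 115, 171 and 143 CPM in HFD AAV-CON, against 194, 236 and 205 CPM in ND AAV-CON. As a share of counts outside mitochondrially encoded genes, which does not rest on TMM scaling, the subunits held 1.76%, 1.61% and 1.56% in HFD AAV-BCKDK, 0.779%, 1.37% and 1.03% in HFD AAV-CON, against 1.56%, 1.79% and 1.62% in ND AAV-CON. The HFD AAV-CON group stayed below both others on this scale, without overlap.

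Relative to the other respiratory complexes, subunit counts varied little. Subunit counts per 100 counts of nuclear subunits of complexes II to V were 36.7, 35.3 and 35.1 in HFD AAV-BCKDK, 34.8, 35.2 and 35.1 in HFD AAV-CON, against 34.7, 36.0 and 35.4 in ND AAV-CON, and the groups overlapped. Per 100 counts of cardiomyocyte markers they were 29.0, 25.8 and 26.3 in HFD AAV-BCKDK, 20.8, 25.1 and 23.8 in HFD AAV-CON, against 23.2, 26.6 and 24.6 in ND AAV-CON. Here HFD AAV-BCKDK lay above HFD AAV-CON, while HFD AAV-CON overlapped ND AAV-CON. Assembly factor counts per 1000 subunit counts were 21.1, 21.1 and 21.6 in HFD AAV-BCKDK, 28.3, 21.2 and 25.4 in HFD AAV-CON, against 20.8, 21.3 and 20.9 in ND AAV-CON. HFD AAV-CON replicates 1 and 3 were above all other libraries on this ratio, while HFD AAV-CON replicate 2 lay within the range of the other groups.

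**Figure D3:**
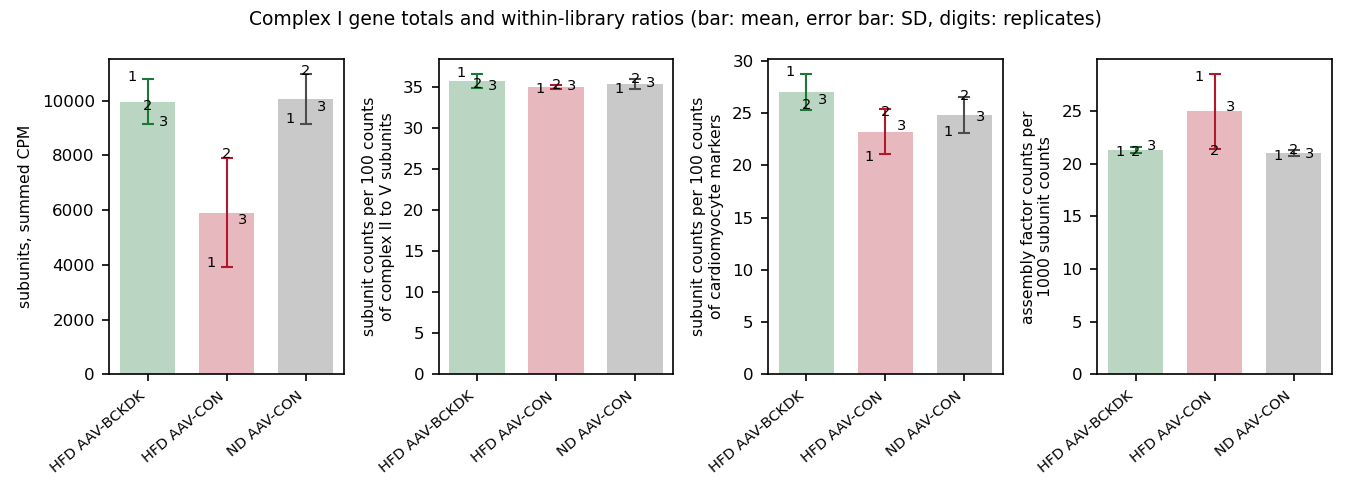
Bars give the mean and error bars the SD of 3 libraries, and digits mark the replicates. From left to right the panels give the summed subunit CPM, subunit counts per 100 counts of complex II to V subunits, subunit counts per 100 counts of cardiomyocyte markers and assembly factor counts per 1000 subunit counts. The first panel shows HFD AAV-CON at 4065 to 8050 CPM, and the second shows all libraries between 34.7 and 36.7.

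The makeup of the subunit pool changed little between libraries. The share of each gene in the subunit counts of a library was compared between the library where it was highest and the one where it was lowest, and the median of this ratio over the 38 subunits was 1.19. It was under 1.5 for 36 subunits, and the exceptions were Ndufa4l2 at 1.73 and Ndufa12 at 1.62. The share of Ndufa4l2 was 0.197% ± 0.0101 in HFD AAV-BCKDK, 0.281% ± 0.0385 in HFD AAV-CON, against 0.202% ± 0.0078 in ND AAV-CON (SD, n = 3 each), with all HFD AAV-CON libraries above all others. The share of Ndufa12 was 1.17%, 1.0% and 1.48% in HFD AAV-BCKDK, 1.06%, 0.989% and 1.32% in HFD AAV-CON, against 1.61%, 1.46% and 1.47% in ND AAV-CON. Replicate 3 of both HFD groups was above its group's other libraries for Ndufa12, and in HFD AAV-BCKDK it reached the ND AAV-CON range.

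**Figure D4:**
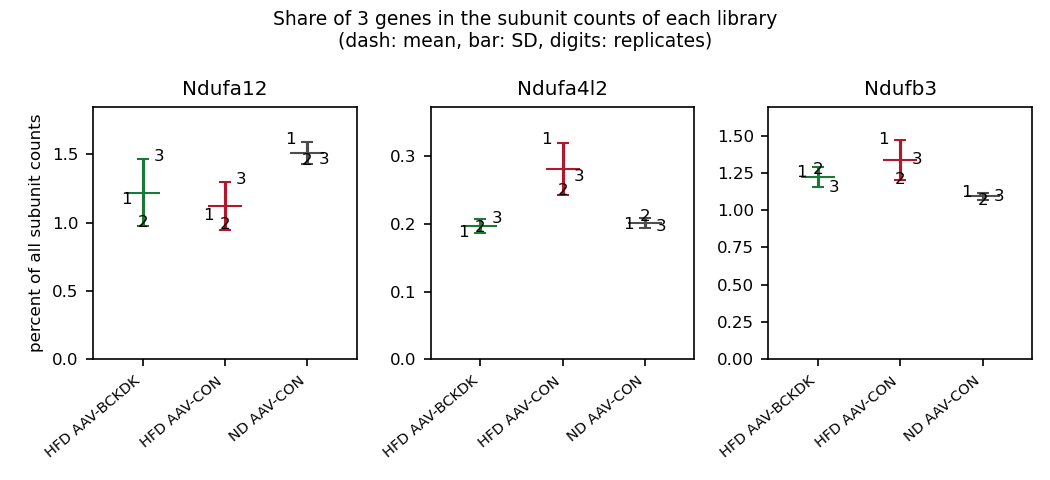
Share of 3 genes in the subunit counts of each library in percent, with the mean (dash), SD (bar) and replicates (digits) per group. Ndufa4l2 and Ndufa12 are the subunits whose share varied most, at a highest to lowest ratio of 1.73 and 1.62, and Ndufb3, chosen after its values were seen, is shown beside them.

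The complex I subunits encoded in mitochondrial DNA ran the same way. Of the 7 mt-Nd genes, 4 fell under the diet (median -0.89) and 7 rose under the BCKDK vector (median 0.94). The shares of all genes tested were 20.6% and 17.3%. mt-Nd5, a proton-pumping subunit, averaged 25234 ± 2461 CPM in HFD AAV-BCKDK, 12447 ± 3684 CPM in HFD AAV-CON, against 23140 ± 3480 CPM in ND AAV-CON (SD, n = 3 each). Its log2 fold change was -0.89 (SE 0.26, adjusted p = 0.0208) under the diet and 1.02 (SE 0.26, adjusted p = 0.0156) under the BCKDK vector. mt-Nd6, encoded on the opposite strand to the other mt-Nd genes, averaged 11811 ± 1337 CPM in HFD AAV-BCKDK, 5587 ± 1859 CPM in HFD AAV-CON, against 11450 ± 1480 CPM in ND AAV-CON (SD, n = 3 each). Its values were -1.04 (SE 0.25, adjusted p = 0.0103) under the diet and 1.08 (SE 0.25, adjusted p = 0.0115) under the BCKDK vector. The strand setting of the counting is not known, so the mt-Nd6 counts may hold reads of the other strand. They are not a separate result for that reason. For mt-Nd3 the value under the BCKDK vector was 1.27 (SE 0.30, adjusted p = 0.0116). Counts of mt-Nd genes per nuclear subunit count were 13.9, 16.6 and 16.2 in HFD AAV-BCKDK, 13.3, 13.5 and 13.7 in HFD AAV-CON, against 16.1, 11.9 and 13.4 in ND AAV-CON. All HFD AAV-BCKDK libraries lay above the HFD AAV-CON libraries on this ratio, and ND AAV-CON overlapped each of them.

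A list of 12 further genes of complex I assembly was looked up by symbol, and 11 were matched. Coa1 had no match, and Dmac1 was matched through the symbol 9530003J23Rik, which was not verified. Of the list, 10 were tested, and all 10 fell under the diet (median -0.61) and rose under the BCKDK vector (median 0.53). Among all genes tested, 20.6% fell under the diet and 17.3% rose under the BCKDK vector. Acad9, a partner of Ndufaf1, had -0.59 (SE 0.09, adjusted p = 0.0016) under the diet and 0.40 (SE 0.09, adjusted p = 0.0107) under the BCKDK vector.  Tmem126a, which assists the ND4 module, had -0.83 (SE 0.15, adjusted p = 0.0024) and 0.73 (SE 0.15, adjusted p = 0.0059). Nuclear subunits of complexes II to V gave 36 of 39 lower under the diet (median -0.78) and 36 of 39 higher under the BCKDK vector (median 0.77), against -0.78 and 0.77 for the complex I subunits.

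A list of 9 regulators of nuclear respiratory genes holds factors of the NRF1, YY1, ERR and GABP motifs together with coactivators and Tfam. Of these, 4 fell and 1 rose under the diet, where 43.3% of all genes were called in either direction. Under the BCKDK vector 4 rose and 1 fell, where 38.2% of all genes were called. Tfam, which maintains and transcribes mitochondrial DNA, averaged 45.9 ± 3.27 CPM in HFD AAV-BCKDK, 33.1 ± 3.55 CPM in HFD AAV-CON, against 43.8 ± 0.939 CPM in ND AAV-CON (SD, n = 3 each), with log2 fold changes of -0.40 (SE 0.09, adjusted p = 0.0076) under the diet and 0.47 (SE 0.09, adjusted p = 0.0057) under the BCKDK vector. The receptor gene Esrrg averaged 29.3 ± 4.21 CPM in HFD AAV-BCKDK, 17.9 ± 4.86 CPM in HFD AAV-CON, against 30.1 ± 1.79 CPM in ND AAV-CON, with -0.75 (SE 0.18, adjusted p = 0.0090) and 0.71 (SE 0.18, adjusted p = 0.0145). The coactivator gene Pprc1 ran the other way, at 0.85 (SE 0.13, adjusted p = 0.0014) under the diet and -0.46 (SE 0.13, adjusted p = 0.0216) under the BCKDK vector. Nrf1 was at 0.012 and -0.077, Yy1 at 0.099 and -0.052 and Ppargc1a at 0.32 and 0.0082, none of them called. Nrf1, Yy1 and Ppargc1a were named after their values were seen.

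Directions are relative to the typical gene. With total-count scaling in place of TMM factors, the median of all genes was at 0.40 under the diet and -0.47 under the BCKDK vector. The subunit median was then -0.44 with 23 subunits called under the diet, and 0.36 with 14 called under the BCKDK vector, while the factor medians were -0.22 and 0.11 with 0 called in each. Relative to the shifted median of all genes, the subunits stood at -0.84 and 0.83 and the factors at -0.62 and 0.58.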

How the data were processed

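Left ventricular RNA was extracted with Trizol and libraries were prepared from it (VAHTS mRNA-seq v2), per the labels' protocols. HISAT2 2.0.5 and mm10 are named in the submitters' processing notes, and the sources used here do not give the counting tool, its annotation or its strand setting. The authors deposited whole-number counts for each gene, not normalized. Of 26178 entries, 4142 loci without an Ensembl identifier held 4.75% to 6.01% of counts in 8 libraries and 1.02% in HFD AAV-CON replicate 3, and were left out. Counts of 3 biological replicates per group (so described in the series design) were fitted in R 4.3.3 with edgeR 4.0.16 (filterByExpr, TMM factors, quasi-likelihood F test, 1 coefficient per group, all 9 libraries, Benjamini-Hochberg over the 14160 genes tested, threshold 0.05). CPM were computed here from TMM-scaled library sizes. The SE of a fold change comes from its F statistic. The pipeline was run on simulated counts, drawn independently for each gene and with a small share of genes changed. In these data many genes differ and move together, so that run does not check the calls made here. Within groups, no pair of libraries agreed within sampling noise (lowest chi-square over its degrees of freedom 14.7). This finds a library deposited more than once and not a mixture of others, so it does not settle the independence of HFD AAV-CON replicate 3, which was counted as 1 library. P-values measure the spread between these libraries, which is far wider than read sampling at this depth. That spread is estimated once per gene over the 3 groups, although HFD AAV-CON was the most dispersed.

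The members, gene lists, markers and tests were chosen with earlier results of these data known. Counts and medians cover all members, and the values of 1 member are not reported here. Values in each library are given for the nuclear core subunits, all assembly factors, Ndufa4 and Ndufa4l2. They are given for the 3 subunits with the lowest and the 3 with the highest fold change in each of the first 2 comparisons. The 6 members with the smallest p in the last comparison have them as well. Those of Ndufa11 and Ndufb2 cover the vector comparison only. For a few mt-Nd genes, other assembly genes and regulators, group means or fold changes are given. Complexes II to V have counts and medians only. Gene positions, exon overlaps and transcript lengths are from GENCODE M21. Alternatives were RLE, upper-quartile and total-count scaling, mitochondrial genes left out, unnamed loci kept, other filters, DESeq2 1.42.0, limma-voom (limma 3.58.1), a replicate block, robust dispersion, pairwise fits, thresholds of 0.01 and 0.10, and each library left out.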

Additional observations from a re-analysis of the deposited data

How the results depend on the processing

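Medians of the subunits and of the assembly factors kept their sign in the first 2 comparisons under every alternative. Among alternative values for single named genes, 795 kept direction and side of the threshold, 126 lost the call, 11 gained it and 4 reversed. With total-count scaling 23 subunits were lower under the diet and 14 higher (median 0.36) under the BCKDK vector, 0 assembly factors were called in either, their medians were -0.22 and 0.11, and 136 genes were called between HFD AAV-BCKDK and ND AAV-CON. All genes then split into 5986 higher and 934 lower under the diet and 398 higher and 6867 lower under the BCKDK vector, against 3215 and 2919, and 2444 and 2966, with TMM factors. Ndufa4l2 reversed to 0.035 under the diet and -0.15 under the BCKDK vector, where Ndufaf7 reversed to -0.010 and Ndufaf5 to -0.12. Fits of 2 groups alone have fewer samples and their own estimate of the spread. They called 23 and 17 subunits, against 35 and 35 in the main fit. Between HFD AAV-BCKDK and ND AAV-CON they called 873 genes, against 347, and DESeq2 called 902. Within HFD AAV-CON the chi-square over its degrees of freedom was 66.2 to 272, against 14.7 to 23.7 within the other groups. The main fit shares 1 estimate of the spread per gene over these groups. At a false discovery rate of 0.01 the counts were 7 and 0 subunits, 1 and 2 factors, and 3254, 2058 and 64 of all genes in the 3 comparisons, and at 0.10 685 genes were called in the last. The replicate block gave 35 and 37 subunits, and 107 genes in the last comparison. Same-numbered libraries correlated between -0.28 and 0.25 and not each best with its own number. Pairing of hearts by number is thus not shown, and 3 libraries per group cannot exclude it. Leaving out single libraries gave 8 to 38 subunits, 2 to 8 factors and 4050 to 7325 genes under the diet, 5 to 38 subunits, 2 to 8 factors and 2847 to 6978 genes under the BCKDK vector, and 43 to 117 genes in the last comparison, where the factor median ranged from -0.11 to 0.050. The cause of these changes was not tested. With 3 libraries per group, fold changes of more than 2 standard errors could stay uncalled, such as that of Ndufaf7 under the BCKDK vector (0.42, SE 0.16).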
